A study of Caenorhabditis elegans with 27 samples.

Results

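The step from day 6 to day 11 of adulthood was examined in control worms, which were wild-type *Caenorhabditis elegans* of the strain N2 fed only the *Escherichia coli* strain OP50 on NGM agar plates at 20 °C. The comparison used the 3 whole-worm RNA-seq libraries labelled day 11 against the 3 labelled day 6, chosen by these labels alone, and so 6 of the 27 libraries of the series. Worms had been synchronised at the L4 larval stage and days were counted from there. About 1000 worms went into each sample, so every value is an average over many animals and all tissues. The labels do not say how adults were kept apart from their progeny. The other libraries came from OP50-fed worms of days 1, 15 and 17 and from worms given Black Rice Extract (BRE) with OP50 on days 6, 11, 15 and 17. The extract-fed libraries of days 6 and 11 were used once here, as a second set of worms taken over the same step. Of 46934 genes in the table of counts, 19290 passed a filter on low counts and were tested.

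An adult worm is covered by a cuticle made of collagens, cuticlins and other matrix proteins that the epidermis (hypodermis) secretes, most strongly around each larval moult. In the intestine, a p38 kinase cascade that runs from the adaptor TIR-1 through the kinases NSY-1, SEK-1 and PMK-1 to the transcription factor ATF-7 maintains the expression of secreted defence genes. Young hermaphrodites load intestinal yolk proteins into oocytes, and egg laying by self-fertilisation ends as the animals' own sperm run out.

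Total counts per library were 112066253 to 155788419. Day 6 libraries held counts for 19165 to 19730 genes and day 11 libraries for 20808 to 22402. In a principal component analysis of the 6 libraries the days separated along the leading component, with 52.7% of the variance, and day 11 replicate 1 stood apart on the next, with 21.7%. That library also stood out in sperm RNA. Its major sperm protein genes (*msp*) summed to 28.35 CPM (counts scaled to library size), against 1.005 and 1.415 CPM in the other two day 11 libraries and 0.864, 0.723 and 0.387 CPM at day 6. Near-identical *msp* copies share reads, so only their sum is given. Of 40 sperm genes none was called by edgeR although 20 had an unadjusted p under 0.05, while 14 rose by DESeq2 and 2 with the replicate number as a block.

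Most of the genes that changed rose from very low levels. The step changed 3173 of the 19290 genes tested (16.4%) at an adjusted p under 0.05, by edgeR's quasi-likelihood test with Benjamini-Hochberg adjustment over all genes. Of these, 2423 rose (12.6%) and 750 fell (3.89%), and 5824 (30.2%) had an unadjusted p under 0.05. The genes that rose had a median of 0.245 CPM at day 6 and 0.869 CPM at day 11, a median log2 difference of 1.85, and 1713 of them (70.7%) were under 1 CPM at day 6. The low-count filter used all 27 libraries, so a gene near silent at day 6 could pass it through other groups. Such a gene could hardly fall, which favours rises from low levels. Among the genes tested 475 had no counts at day 6, with 184 of them called higher, and 11 had none at day 11. The genes that fell were abundant and moved less, from a median of 32.8 to 19.4 CPM and by a median log2 difference of -0.66. A change of at least 2-fold was seen in 2051 of the genes that rose (10.6% of those tested) and 247 of those that fell (1.28%). The 3 day 11 values lay wholly outside the 3 day 6 values in 95.0% of the genes that rose and 98.1% of those that fell, against 36.5% of all genes tested. Calls were made on these same values, which favours separate groups, so the shares are no further evidence of change. Genes named below for the size of their change were chosen to have groups that did not overlap.

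**Figure D1:**
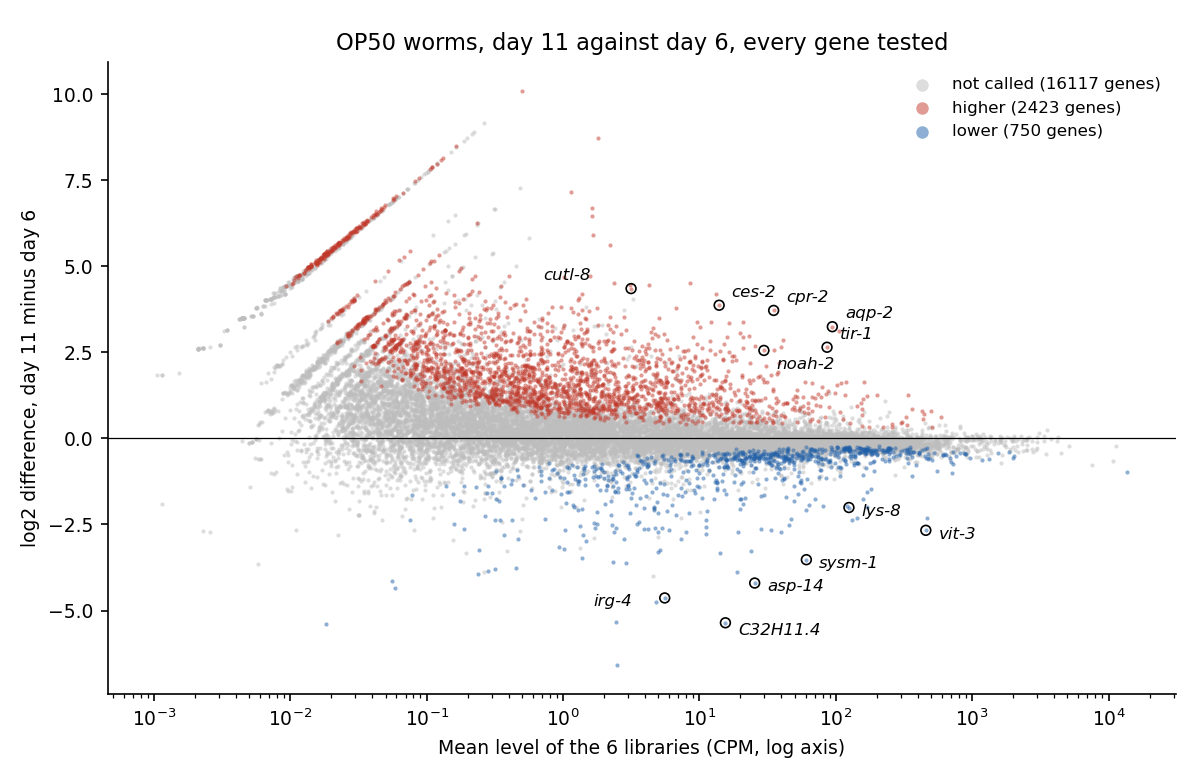
Log2 difference between day 11 and day 6 (vertical axis) against the mean level of the 6 libraries in CPM (horizontal log axis) for the 19290 tested genes of OP50-fed worms. Genes past the adjusted p of 0.05 are coloured by direction, 2423 higher in red and 750 lower in blue, and the red points reach to lower levels and larger differences than the blue. Circles mark named genes.

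The number of genes that fell depended on the fit more than the number that rose. Samples with the same replicate number deviated together, and with the number as a block over the 6 libraries 6171 of 16331 genes (37.8%) were called, 3074 higher (18.8%) and 3097 lower (19%). That fit called 84.5% of the 3173 genes again. Its low-count filter used the 6 libraries alone, so its counts for a gene list can rest on fewer genes. With the same block for these libraries in the fit of all 27, 3145 genes (16.3%) were called, 2406 higher and 739 lower (3.83%). Upper-quartile scaling, which moved the median log2 difference of all genes from 0.07 to 0.18, called 2912 genes higher and 455 lower. Without day 11 replicate 2, day 11 replicate 3, day 6 replicate 1 or day 6 replicate 2 the genes that fell numbered 445, 430, 436 and 491. The libraries are labelled as biological replicates, and the p-values measure the spread between them.

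**Figure D2:**
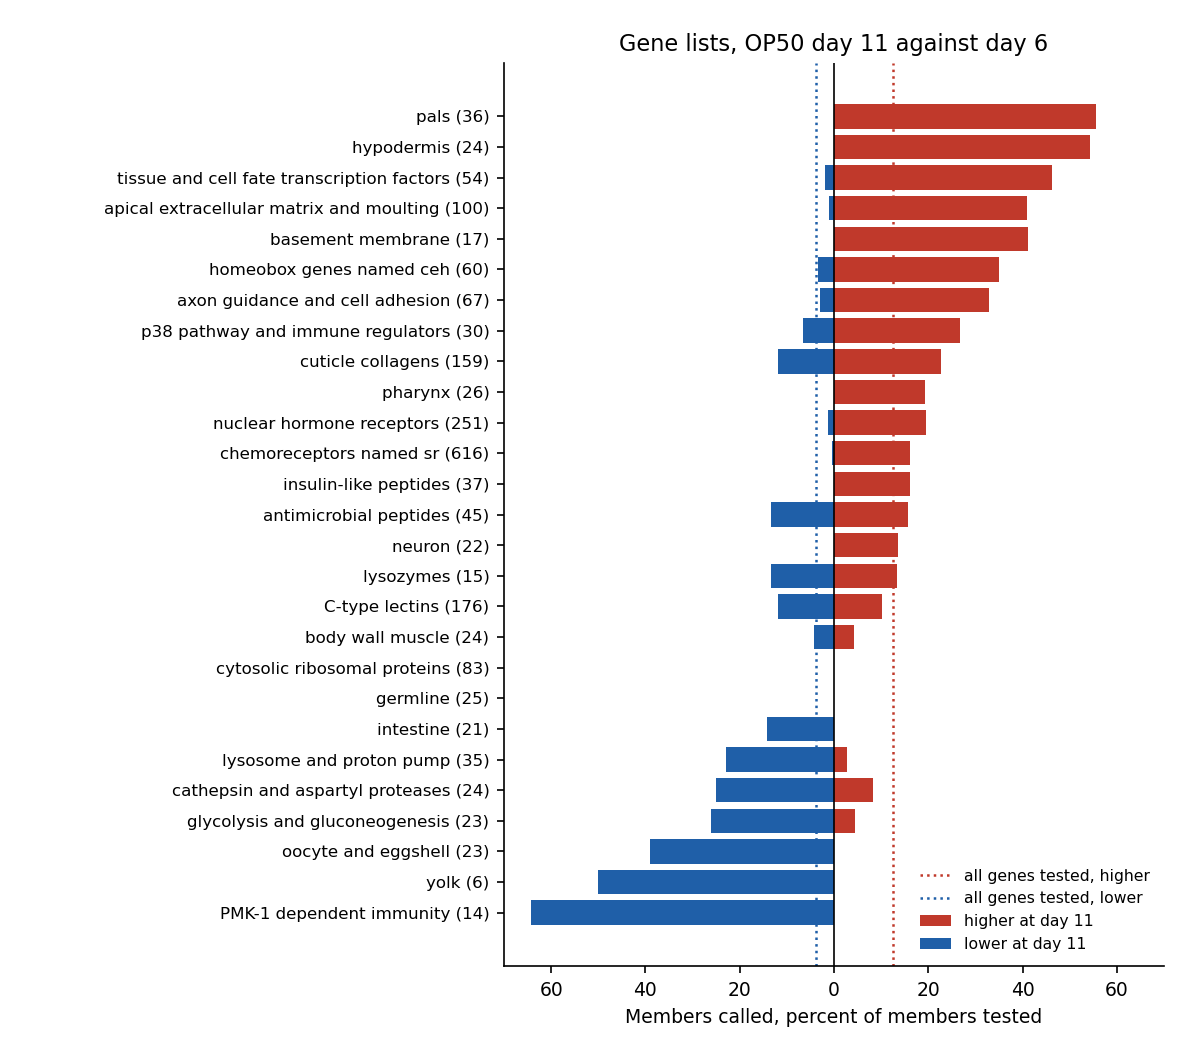
Share of the tested genes of each list that rose (right) or fell (left) from day 6 to day 11 at an adjusted p of 0.05, in percent, with dotted lines at 12.6% and 3.89%, the shares over all 19290 genes. The pals, hypodermis and cell fate genes reach furthest to the right, and PMK-1 dependent immunity and yolk genes furthest to the left.

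Genes of the cuticle's outer matrix and of moulting rose together. Of 100 tested genes that encode apical extracellular matrix or moulting proteins, a list drawn up after the results were seen, 41 rose and 1 fell, or 48 and 4 with the replicate number as a block, with a median log2 difference of 0.72 against 0.07 over all genes. Between 33 and 40 of them rose when any 1 of the 6 libraries was left out. Of 24 tested hypodermis genes, 13 rose and none fell, or 17 and 2 under the block, with a median of 1.4, and 11 to 14 rose with 1 library left out.

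The cuticlin-like gene *cutl-16* (chromosome II, 6441428 to 6443994 of WBcel235) stood at 2.97, 3.58 and 4.27 CPM at day 6 and 35, 38.5 and 40.2 CPM at day 11. The rise was 10.5-fold (log2 difference 3.39, SE 0.29, adjusted p = 4.6e-08). *lpr-6*, which encodes a lipocalin-related protein, had 0.419, 0.354 and 0.574 CPM at day 6 and 4.29, 5.64 and 5.67 CPM at day 11 (log2 difference 3.53, SE 0.4, adjusted p = 1.8e-06). *cutl-8*, whose exons overlap the gene T01G9.2, had 0.349, 0.239 and 0.297 CPM at day 6 and 4.61, 6.7 and 6.74 CPM at day 11 (log2 difference 4.35, SE 0.29, adjusted p = 1.3e-09). In each of these genes the lowest day 11 library was above the highest at day 6.

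Further matrix genes began at higher levels; all but *noah-2* were chosen after their values were seen. *noah-2* and *noah-1* encode zona pellucida domain proteins of the larval apical matrix. *noah-2* had 8.15, 8.39 and 9.42 CPM at day 6 and 41.7, 57.1 and 53.6 CPM at day 11 (log2 difference 2.55, SE 0.36, adjusted p = 2.8e-05). *noah-1* had 8.51, 11.2 and 12.8 CPM at day 6 and 41.1, 87.2 and 76.5 CPM at day 11, with a wide spread at day 11 but no overlap (log2 difference 2.66, SE 0.47, adjusted p = 0.00038). The lipocalin-related gene *lpr-3* had 3.87, 3.62 and 4.23 CPM at day 6 and 26, 26.5 and 26.7 CPM at day 11, nearly the same value in each day 11 library (log2 difference 2.75, SE 0.35, adjusted p = 9.0e-06). The fibrillin-like gene *fbn-1*, which overlaps *upp-1*, had 3.07, 3.89 and 7.43 CPM at day 6 and 17.8, 44 and 49 CPM at day 11 (log2 difference 2.94, SE 0.63, adjusted p = 0.0022).

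The same direction was seen in several epidermal genes that take part in moulting or encode hedgehog-related proteins. The moulting gene *mlt-8* had 1.1, 1.31 and 1.32 CPM at day 6 and 6.98, 7.5 and 6.03 CPM at day 11 (log2 difference 2.46, SE 0.27, adjusted p = 1.4e-06). *ptr-4*, a patched-related gene needed for moulting, had 1.4, 0.977 and 1.23 CPM at day 6 and 6.06, 8.45 and 7.7 CPM at day 11 (log2 difference 2.62, SE 0.35, adjusted p = 1.4e-05). *wrt-10*, a hedgehog-related gene, had 7.0, 4.36 and 5.67 CPM at day 6 and 29.6, 28.2 and 32 CPM at day 11 (log2 difference 2.4, SE 0.36, adjusted p = 6.4e-05). No library of one day reached the values of the other in these genes. Of the 80 tested hedgehog-related and patched-related genes 17 rose and 3 fell, or 27 and 8 under the block. These are 21.2% and 3.75% in the main fit, against 12.6% and 3.89% of all genes tested. The 80 genes summed to 1308, 1503 and 1523 CPM at day 6 and 1064, 1315 and 1251 CPM at day 11, so their total did not rise. Hypodermis genes did not all move: the most abundant of the list, the patched-related gene *ptr-2* and the epidermal fate gene *lin-26*, had log2 differences of -0.36 and -0.15 and were not called. Their summed level over the 24 genes was 1048, 1197 and 1209 CPM at day 6 and 1165, 1612 and 1629 CPM at day 11, so the sums overlapped. In whole worms, a change in the number of cells of a type and a change in RNA per cell cannot be told apart.

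Cuticle collagens moved in both directions, 36 higher and 19 lower of 159 tested, and both counts depended on the libraries fitted. When only the 6 libraries compared were fitted, 19 rose and 26 fell. Without day 11 replicate 1 the count of collagens that rose was 17 and the list's median log2 difference went from 0.91 to -0.15. It was 21 without day 6 replicate 2 and 23 without day 6 replicate 3. Collagens that rose whichever library was left out included *dpy-14*, with 8.25, 5.7 and 6.89 CPM at day 6 and 47.6, 44.4 and 41.5 CPM at day 11 (log2 difference 2.68, SE 0.23, adjusted p = 4.7e-08), and *dpy-2*, with 1.12, 0.947 and 1.15 CPM at day 6 and 5.75, 6.78 and 5.99 CPM at day 11 (log2 difference 2.53, SE 0.26, adjusted p = 4.2e-07), both needed for normal body shape. *col-121*, whose exons overlap *daf-15*, had 0.541, 0.623 and 0.609 CPM at day 6 and 5.91, 4.87 and 4.82 CPM at day 11 (log2 difference 3.13, SE 0.24, adjusted p = 1.3e-08). These collagens kept their call in every fit that left out 1 library.

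Other collagens fell. *col-106* had 266, 307 and 245 CPM at day 6 and 95.5, 48.3 and 63.3 CPM at day 11 (log2 difference -1.98, SE 0.24, adjusted p = 3.7e-06). *col-178* had 39.7, 30.0 and 30.1 CPM at day 6 and 7.71, 3.25 and 4.18 CPM at day 11 (log2 difference -2.72, SE 0.62, adjusted p = 0.0035), and *col-183* had 8.47, 10.9 and 8.53 CPM at day 6 and 1.4, 0.477 and 1.08 CPM at day 11 (log2 difference -3.25, SE 0.42, adjusted p = 9.7e-06). The groups did not overlap in any of these. *col-80* also had separate groups, at 16.1, 12.1 and 10.9 CPM at day 6 and 2.04, 1.37 and 1.81 CPM at day 11, but its adjusted p of 0.045 (edgeR) rose to between 0.0686 and 0.137 when any 1 library was left out.

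**Figure D3:**
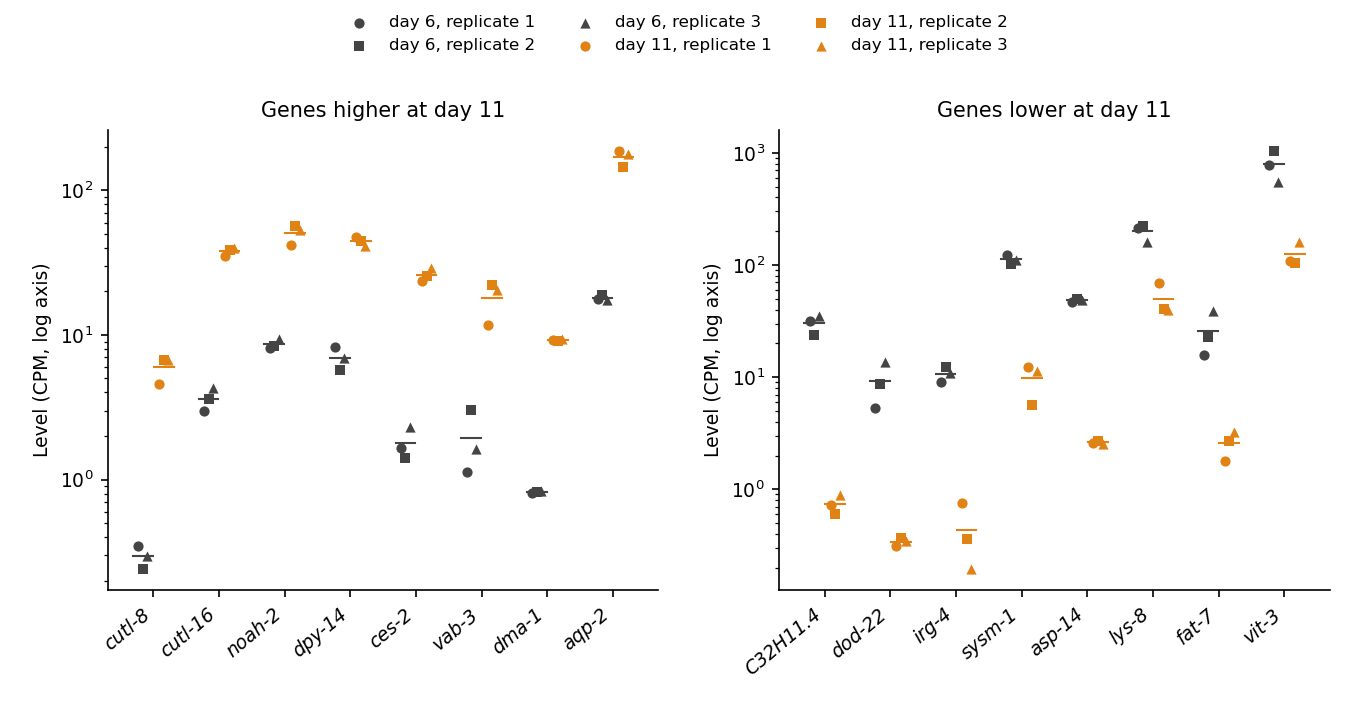
Level of named genes in each of the 3 day 6 and 3 day 11 libraries of OP50-fed worms, in CPM on a log axis. Each point is 1 library and each line a group mean. The 2 days do not overlap in any of the genes shown. For genes named by the size of their change this was a condition of the choice.

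Many transcription factors that set cell fates in development rose. Of 54 such genes 25 rose and 1 fell, or 30 and 2 under the block, with a median log2 difference of 0.85, and 22 to 24 rose with 1 library left out (a list also drawn up after the results were seen). Of 60 tested homeobox genes named *ceh*, 21 rose and 2 fell, or 18 and 9 under the block. *ces-2*, a bZIP factor known for its part in the programmed death of a neuronal sister cell, had 1.65, 1.42 and 2.3 CPM at day 6 and 23.6, 25.5 and 29.3 CPM at day 11 (log2 difference 3.87, SE 0.32, adjusted p = 3.2e-08). *vab-3*, the worm Pax6 gene, had 1.13, 3.02 and 1.63 CPM at day 6 and 11.7, 22.2 and 20.5 CPM at day 11 (log2 difference 3.23, SE 0.43, adjusted p = 1.2e-05). *nhr-67*, an orphan nuclear receptor related to tailless, had 1.06, 0.731 and 0.906 CPM at day 6 and 8.32, 8.75 and 7.68 CPM at day 11 (log2 difference 3.2, SE 0.33, adjusted p = 6.1e-07). Day 11 values were several-fold above all day 6 values in these genes.

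*hlh-1*, the worm MyoD gene, which overlaps B0304.4, had 0.715, 0.785 and 0.539 CPM at day 6 and 3.21, 2.68 and 4.09 CPM at day 11 (log2 difference 2.29, SE 0.34, adjusted p = 4.9e-05). *zag-1*, a neuronal zinc-finger homeobox gene, had 0.646, 0.746 and 0.602 CPM at day 6 and 3.14, 3.52 and 3.31 CPM at day 11 (log2 difference 2.32, SE 0.23, adjusted p = 2.8e-07). *pha-4*, the FoxA factor of the pharynx, had 2.41, 3.24 and 4.92 CPM at day 6 and 7.91, 12.4 and 12.5 CPM at day 11 (log2 difference 1.64, SE 0.41, adjusted p = 0.0084). The call on *pha-4* was lost without day 6 replicate 1, at an edgeR adjusted p of 0.0585. Of 14 genes of the early zygotic genome, listed as markers of embryos, 2 rose, *ceh-51* and *tbx-35*. Among the fits that left out 1 library *tbx-35* kept its call only without day 11 replicate 1. The list shared *elt-7* with the intestine list, so it does not mark embryos alone. The 14 summed to 52.3, 54.2 and 58.8 CPM at day 6 and 36.6, 57.4 and 53.6 CPM at day 11. The part of embryos in the rises of single genes was not tested.

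Receptors and adhesion proteins of neurons and epithelia rose beside them. Of 67 axon guidance and cell adhesion genes, also listed after the results were seen, 22 rose and 2 fell, or 34 and 5 under the block, with a median log2 difference of 0.54. *dma-1*, a leucine-rich repeat receptor that shapes sensory dendrites, had 0.811, 0.823 and 0.83 CPM at day 6 and 9.2, 9.09 and 9.43 CPM at day 11. The rise was 11.2-fold (log2 difference 3.49, SE 0.2, adjusted p = 1.9e-10). *fmi-1*, the Flamingo-type cadherin, had 1.24, 1.29 and 2.57 CPM at day 6 and 10.7, 18.1 and 23.9 CPM at day 11 (log2 difference 3.37, SE 0.39, adjusted p = 2.5e-06). *plx-2*, a plexin, had 0.663, 1.75 and 1.78 CPM at day 6 and 5.52, 12.9 and 12.1 CPM at day 11 (log2 difference 2.86, SE 0.4, adjusted p = 2.8e-05). *dlg-1*, the Discs large scaffold of epithelial junctions, had 38.9, 50.2 and 66.8 CPM at day 6 and 97.9, 183 and 178 CPM at day 11 (log2 difference 1.56, SE 0.33, adjusted p = 0.0019). In the last 3 genes the lowest of the 3 values at each day belonged to replicate 1.

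In the basement membrane, laminin genes rose and type IV collagen genes were not called. Of 17 tested genes 7 rose and none fell, or 11 and 0 under the block, with a median log2 difference of 0.73. The laminin alpha genes *lam-3* and *epi-1* had 4.68, 5.78 and 7.57 CPM at day 6 and 17.4, 29.3 and 39.4 CPM at day 11, and 6.4, 17.8 and 13.3 CPM at day 6 and 23.5, 48.1 and 58.8 CPM at day 11 (log2 differences 2.26 and 1.8, SE 0.3 and 0.39). The laminin gamma gene *lam-2* had 6.73, 15 and 14.5 CPM at day 6 and 21.1, 51.5 and 53.4 CPM at day 11 (log2 difference 1.8, SE 0.4, adjusted p = 0.0032), and the beta gene *lam-1* rose by 1.2 on the log2 scale (SE 0.28). Groups did not overlap in *lam-3*, *epi-1* or *lam-2*, although replicate 1 was the lowest library of both days in each. The peroxidasin gene *pxn-2* had 1.15, 1.52 and 1.96 CPM at day 6 and 4.17, 4.75 and 6.65 CPM at day 11 (log2 difference 1.74, SE 0.31, adjusted p = 0.00038). The type IV collagen genes *emb-9* and *let-2* had log2 differences of 0.05 and -0.04, with SEs of 0.32 and 0.36.

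Several genes of a list named PMK-1 dependent immunity were among the genes that fell most. Whether each member is secreted or depends on PMK-1 was not tested. Of 14 tested genes of this list 9 fell and none rose, with a median log2 difference of -2.58, and 9 fell in every fit that left out 1 library. The list was chosen with earlier results of these libraries known. *sysm-1*, which encodes a small secreted peptide used as a reporter of the pathway (chromosome II, 9082626 to 9083193), had 123, 102 and 110.5 CPM at day 6 and 12.3, 5.69 and 11.3 CPM at day 11, an 11.5-fold fall (log2 difference -3.52, SE 0.67, adjusted p = 0.00082). *irg-4*, an infection response gene, had 9.02, 12.3 and 10.8 CPM at day 6 and 0.757, 0.358 and 0.193 CPM at day 11, a 24.8-fold fall (log2 difference -4.63, SE 0.6, adjusted p = 1.1e-05). *clec-85*, a C-type lectin gene whose exons overlap Y54G2A.40, had 60.3, 48.5 and 37.7 CPM at day 6 and 9.89, 6.24 and 7.65 CPM at day 11 (log2 difference -2.62, SE 0.25, adjusted p = 2.1e-07). Every day 11 library was below every day 6 library in these genes.

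Several genes that fell lie near each other. On chromosome IV, between 12921264 and 12967392, 10 genes were tested, of which C32H11.4, *dod-24*, F55G11.8 and *dod-22* fell and none rose. The others were not called, and 3.89% of all genes tested fell. As the stretch was singled out for genes that fell, its count is not separate evidence. C32H11.4 had 31.8, 23.6 and 35.4 CPM at day 6 and 0.72, 0.603 and 0.897 CPM at day 11, a 40.9-fold fall (log2 difference -5.35, SE 0.89, adjusted p = 0.00020). *dod-24* and *dod-22* are CUB-like domain genes known as targets of insulin signalling and immunity. *dod-24* had 35.6, 28.4 and 42.6 CPM at day 6 and 3.68, 1.27 and 2.32 CPM at day 11 (log2 difference -3.88, SE 0.77, adjusted p = 0.0011), and *dod-22* had 5.3, 8.77 and 13.6 CPM at day 6 and 0.31, 0.37 and 0.345 CPM at day 11 (log2 difference -4.75, SE 0.7, adjusted p = 5.1e-05). The groups were separate in each of them. The median log2 difference over the stretch was -0.79. The 5 tested genes of the PMK-1 list that were not called were *irg-1*, *irg-2*, *irg-5*, *lys-2* and *catp-3*, with log2 differences from -0.98 to 0.14.

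The kinases of the cascade were not called, and its adaptor rose. *tir-1*, which encodes the TIR-domain adaptor at the top of the pathway, had 19.7, 29.8 and 21.8 CPM at day 6 and 149.8, 163 and 134 CPM at day 11, a 6.26-fold rise with separate groups (log2 difference 2.65, SE 0.31, adjusted p = 3.1e-06). *nsy-1*, *sek-1* and *pmk-1* had log2 differences of -0.02, -0.04 and 0.21, with SEs of 0.31, 0.17 and 0.16, and *atf-7* had -0.24 (SE 0.12). None of these was called. *vhp-1*, a phosphatase that acts on p38 and JNK kinases, had 38.7, 52.9 and 55.9 CPM at day 6 and 98.1, 149 and 133 CPM at day 11 (log2 difference 1.37, SE 0.25, adjusted p = 0.00058). *tir-1* and *vhp-1* were chosen after their values were seen. The bZIP genes *zip-2*, an immune regulator, and *cebp-1* had 94.1, 128 and 129 CPM at day 6 and 268, 283 and 298 CPM at day 11, and 15.6, 18.7 and 21.2 CPM at day 6 and 41.9, 52.8 and 56.2 CPM at day 11, with log2 differences of 1.27 and 1.44 (SE 0.22 and 0.3). Both were higher in every day 11 library. Of the 30 regulators listed after the results were seen 8 rose, and *fshr-1* and *mek-1* fell by 0.81 and 0.45 on the log2 scale. Under the block 5 of the 30 fell. The call on *fshr-1* was lost without day 6 replicate 3, and that on *mek-1* without any 1 of the 6 libraries.

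Other defence genes were divided between rises and falls. The shares that rose were 13.3% of lysozyme, 10.2% of C-type lectin and 15.6% of antimicrobial peptide genes, near the 12.6% of all genes tested. The shares that fell were 13.3%, 11.9% and 13.3%, against 3.89% of all genes tested. Among 15 lysozyme genes 2 rose and 2 fell. *lys-8* had 216, 223 and 162 CPM at day 6 and 68.8, 40.8 and 39.7 CPM at day 11 (log2 difference -2.01, SE 0.26, adjusted p = 8.9e-06) and *ilys-5* had 264, 278 and 221 CPM at day 6 and 108, 42.6 and 107 CPM at day 11 (log2 difference -1.57, SE 0.36, adjusted p = 0.0040). *ilys-2*, an invertebrate-type lysozyme gene, went the other way with 7.42, 5.96 and 2.14 CPM at day 6 and 17.7, 35.8 and 20.8 CPM at day 11 (log2 difference 2.26, SE 0.44, adjusted p = 0.00091). *ilys-3* had 73.4, 35.3 and 16.6 CPM at day 6 and 126, 145 and 82.4 CPM at day 11, with an edgeR adjusted p of 0.019 that missed 0.05 without day 11 replicate 2, day 6 replicate 2 or day 6 replicate 3. Among 176 C-type lectin genes 18 rose and 21 fell, with 32 lower under the block and 11 higher without day 6 replicate 3. Of these, *clec-78* had 0.96, 0.885 and 0.913 CPM at day 6 and 8.6, 11.9 and 17.3 CPM at day 11 (log2 difference 3.78, SE 0.42, adjusted p = 1.4e-06) while *clec-53* had 1.83, 1.62 and 1.61 CPM at day 6 and 0.201, 0.182 and 0.179 CPM at day 11 (log2 difference -3.17, SE 0.51, adjusted p = 0.00012). Of 45 antimicrobial peptide genes 7 rose and 6 fell. The rises were 13 under the block and 4 without day 6 replicate 3.

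The *pals* genes, many of which respond to intracellular pathogens, moved in 1 direction. Of 36 tested, 20 rose and none fell, with a median log2 difference of 1.9, but 9 rose without day 11 replicate 1. *pals-25* and *pals-27* kept their calls without any 1 library. *pals-27* had 0.375, 0.60 and 0.719 CPM at day 6 and 2.79, 2.67 and 2.05 CPM at day 11 (log2 difference 2.14, SE 0.36, adjusted p = 0.00021), and *pals-25*, an activator of the intracellular pathogen response, had 2.47, 1.66 and 1.83 CPM at day 6 and 4.8, 3.87 and 4.69 CPM at day 11 (log2 difference 1.16, SE 0.21, adjusted p = 0.00055). Groups were separate in both. *pals* genes include near-identical copies, between which the counting could split reads.

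Some digestive and lysosomal enzymes fell, by very different amounts. Of 24 cathepsin and aspartyl protease genes 6 fell and 2 rose, or 11 and 4 under the block. *asp-14* had 46.6, 49.9 and 48.3 CPM at day 6 and 2.61, 2.72 and 2.55 CPM at day 11, an 18.4-fold fall with little spread within either day (log2 difference -4.2, SE 0.45, adjusted p = 1.0e-06). *asp-4*, the cathepsin D homologue, which overlaps R12H7.4, had 262, 278 and 267 CPM at day 6 and 107, 82.9 and 100.3 CPM at day 11 (log2 difference -1.48, SE 0.15, adjusted p = 4.1e-07), and the cathepsin B gene *cpr-6* had 765, 699.6 and 700.2 CPM at day 6 and 451, 264 and 409 CPM at day 11 (log2 difference -0.95, SE 0.18, adjusted p = 0.00095). Another cathepsin B gene, *cpr-2*, rose, with 7.78, 2.26 and 4.83 CPM at day 6 and 67, 65.4 and 63 CPM at day 11 (log2 difference 3.72, SE 0.62, adjusted p = 0.00022).

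Of 35 lysosome and proton pump genes 8 fell and 1 rose, with 24 lower under the replicate block, 2 under upper-quartile scaling and 2 to 6 with 1 library left out. The falls were 2 without day 11 replicate 2, 3 without day 11 replicate 3 or day 6 replicate 1, and 5 without day 11 replicate 1 or day 6 replicate 2. *hex-1*, a beta-hexosaminidase, had 228, 218 and 219 CPM at day 6 and 127, 147 and 129 CPM at day 11 (log2 difference -0.72, SE 0.14, adjusted p = 0.00079). *nuc-1*, the lysosomal DNase II, had a mean ± SD of 170.4 ± 3.47 CPM at day 6 and 100.1 ± 17.5 CPM at day 11 (log2 difference -0.77, SE 0.21, adjusted p = 0.013). The membrane protein gene *lmp-2* was the one that rose, with 2.01, 1.65 and 1.89 CPM at day 6 and 4.39, 3.57 and 4.79 CPM at day 11 (log2 difference 1.2, SE 0.3, adjusted p = 0.0080). The summed level of 21 intestine marker genes was 3388, 3246 and 2707 CPM at day 6 and 2670, 2213 and 2724 CPM at day 11, with 3 of the 21 lower, or 1 without day 11 replicate 2, with 5 higher under the block, and the part of intestinal RNA in these falls was not tested.

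Several yolk and oocyte genes fell. The 6 vitellogenin genes took 3.31%, 4.65% and 3.70% of all counts at day 6 and 1.94%, 2.36% and 2.92% at day 11, and 3 of the 6 passed the test, or 5 under the block. *vit-3* had 777, 1046 and 549.7 CPM at day 6 and 109, 105 and 159.5 CPM at day 11 (log2 difference -2.67, SE 0.56, adjusted p = 0.0018), and *vit-4* had 715, 1055 and 576 CPM at day 6 and 134, 147 and 189 CPM at day 11 (log2 difference -2.32, SE 0.5, adjusted p = 0.0022). *vit-5* had 15843, 21563 and 17315 CPM at day 6 and 7587, 8501 and 11798 CPM at day 11 (log2 difference -0.97, SE 0.27, adjusted p = 0.014), a call lost without day 11 replicate 1, day 11 replicate 2 or day 6 replicate 2. *vit-3*, *vit-4* and *vit-5* are near-identical, so how reads were divided among them is uncertain.

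Of 23 oocyte and eggshell genes 9 fell and none rose, with a median log2 difference of -0.45. Under the replicate block 21 of the list fell and 1 rose, while 19% of all genes fell. The falls were 3 under upper-quartile scaling, 4 without day 11 replicate 2, and 3 without day 11 replicate 3 or without day 6 replicate 1. *pos-1*, a maternal RNA-binding protein gene, had 2829.6, 2214 and 2168 CPM at day 6 and 1784, 1528 and 1505 CPM at day 11 (log2 difference -0.58, SE 0.12, adjusted p = 0.0017). *puf-11*, a Pumilio-family gene, had 571, 532 and 551 CPM at day 6 and 413, 389.9 and 409 CPM at day 11 (log2 difference -0.45, SE 0.1, adjusted p = 0.0032), and *nos-2*, a Nanos homologue whose exons overlap *him-14*, had 301, 308 and 284 CPM at day 6 and 199, 189.7 and 201 CPM at day 11 (log2 difference -0.6, SE 0.14, adjusted p = 0.0043). The groups did not overlap in these genes. None of 25 germline genes was called by edgeR, with 2 at an unadjusted p under 0.05, 0 lower in DESeq2 and 14 lower under the block. None of 21 DNA replication genes was called by edgeR, with 5 at an unadjusted p under 0.05, 2 lower in DESeq2 and 17 lower under the block.

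The fatty acid desaturase gene *fat-7*, which makes oleic acid from stearic acid, was among the named genes with the largest falls. It had 15.8, 22.6 and 39.1 CPM at day 6 and 1.79, 2.69 and 3.23 CPM at day 11 (log2 difference -3.33, SE 0.42, adjusted p = 6.4e-06). *fat-2*, the delta-12 desaturase, had 955, 841 and 917 CPM at day 6 and 516, 519 and 593 CPM at day 11 (log2 difference -0.74, SE 0.16, adjusted p = 0.0027). Day 11 libraries were lower throughout for both.

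Some enzymes of central carbon metabolism fell by small amounts. Of 23 glycolysis and gluconeogenesis genes 6 fell and 1 rose, with a median log2 difference of -0.46. Under the replicate block 18 fell and 2 rose, and the falls were 3 without day 11 replicate 3 or without day 6 replicate 1. *gpi-1*, glucose-6-phosphate isomerase, had 229, 209.8 and 191 CPM at day 6 and 168, 153 and 139 CPM at day 11 (log2 difference -0.45, SE 0.1, adjusted p = 0.0034). *tpi-1*, triosephosphate isomerase, had 222, 219 and 201 CPM at day 6 and 162, 151 and 158 CPM at day 11 (log2 difference -0.45, SE 0.11, adjusted p = 0.0052), and *fbp-1*, fructose bisphosphatase, had 181, 164 and 147 CPM at day 6 and 129, 107 and 108 CPM at day 11 (log2 difference -0.51, SE 0.11, adjusted p = 0.0032). The 3 values of each day stayed apart in all of them. Of 24 genes of the TCA and glyoxylate cycles 3 fell, *mdh-1*, *mdh-2* and *idhb-1*, the last of which lost its call without any 1 library. The count was 14 under the block and lay between 0 and 2 when 1 library was left out, fewest without day 11 replicate 2, day 11 replicate 3 or day 6 replicate 1.

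Detoxification genes changed in both directions. Rises made up 12.3% of cytochrome P450, 4.26% of glutathione S-transferase and 10.4% of UDP-glucuronosyltransferase genes, none above the 12.6% of all genes tested. Falls made up 6.85%, 6.38% and 10.4% of these lists, against 3.89% of all genes tested. *cyp-13A5*, a cytochrome P450 gene, had 6.47, 11.3 and 11.8 CPM at day 6 and 71, 61.2 and 84.2 CPM at day 11 (log2 difference 2.87, SE 0.41, adjusted p = 3.6e-05), and another, *cyp-29A4*, had 3.69, 5.07 and 3.67 CPM at day 6 and 0.602, 0.565 and 0.711 CPM at day 11 (log2 difference -2.73, SE 0.29, adjusted p = 8.9e-07). Of 73 cytochrome P450 genes 9 rose and 5 fell, or 12 and 13 under the block. Of 47 glutathione S-transferase genes 2 rose and 3 fell, or 4 and 9 under the block. The falls were 1 without day 11 replicate 3 or day 6 replicate 1, and the rises 5 without day 6 replicate 2. Among them *gst-10* had 11, 10.5 and 9.4 CPM at day 6 and 1.97, 1.22 and 1.71 CPM at day 11 (log2 difference -2.66, SE 0.42, adjusted p = 0.00011) and *gst-24* had 2.82, 2.72 and 2.29 CPM at day 6 and 15.2, 9.24 and 9.61 CPM at day 11 (log2 difference 2.12, SE 0.25, adjusted p = 2.6e-06). Of 67 UDP-glucuronosyltransferase genes 7 rose and 7 fell, or 13 and 12 under the block, and the falls were 3 under upper-quartile scaling. Without 1 library the falls were 3 or 4, fewest without day 11 replicate 2, and the rises were 3 without day 6 replicate 2 and 4 without day 6 replicate 1. Among those that fell, *ugt-53*, had 9.54, 7.6 and 7.1 CPM at day 6 and 1.17, 1.04 and 1.75 CPM at day 11 (log2 difference -2.61, SE 0.3, adjusted p = 2.1e-06).

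Several large families of regulators and receptors held more rises than falls, as did all genes tested, with 12.6% higher and 3.89% lower. The shares that rose were 19.5% of nuclear hormone receptor, 14.7% of F-box A, 22.1% of F-box B and C, 16.2% of chemoreceptor and 16.2% of insulin-like peptide genes. Nuclear hormone receptor genes rose in 49 and fell in 3 of 251 tested, F-box A genes in 23 and 3 of 156, and F-box B and C genes in 31 and 1 of 140. Rises of nuclear hormone receptor genes numbered 31 or 32, and of F-box B and C genes 17 to 20, without day 11 replicate 2 or day 11 replicate 3; the same drop was seen without day 6 replicate 1 for the receptors and without day 6 replicate 3 for the F-box genes. Under the block 64 receptor genes rose, and 42 F-box B and C genes rose and 3 fell. The falls among receptors were 7 under the block and 1 without day 11 replicate 1, day 11 replicate 3 or day 6 replicate 3. Those among F-box A genes were 12 under the block, 1 without day 11 replicate 2 and 0 without day 6 replicate 1. Chemoreceptor genes named *sr* or *str* rose in 100 and fell in 2 of 616. Their median log2 difference was 0.97, or 0.88 with the 67 genes that had no counts at day 6 set at their bound of 3 counts over the group, which is 0.00771 CPM. Without day 6 replicate 1 the chemoreceptor rises numbered 59. With the block 48 rose and 7 fell, but that fit filtered genes on the 6 libraries alone, so these counts are not out of 616. The median log2 difference of the list was 0.47 there. It was 0.45, with 32 rises, when only the 6 libraries were fitted without the block. Of 37 insulin-like peptide genes 6 rose and none fell, or 11 and 2 under the block. *ins-2* had 3.26, 1.26 and 1.61 CPM at day 6 and 11.7, 9.13 and 9.2 CPM at day 11 (log2 difference 2.29, SE 0.37, adjusted p = 0.00016), and *ins-8* had 0.131, 0.269 and 0.408 CPM at day 6 and 1.47, 2.13 and 2.05 CPM at day 11 (log2 difference 2.79, SE 0.51, adjusted p = 0.00049). Both were below every day 11 value in each day 6 library.

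Marker genes of muscle, neurons and pharynx rose in 4.17%, 13.6% and 19.2% of those tested, against 12.6% of all genes. Of 24 body wall muscle genes 1 rose, *hlh-1*, and 1 fell, *mlc-2*, or 3 and 9 under the block. The call on *mlc-2* was lost without day 6 replicate 2 or any 1 of the 3 day 11 libraries. The list summed to 1425, 2522 and 1554 CPM at day 6 and 1502, 1686 and 1478 CPM at day 11. Of 22 neuron genes 3 rose, *eat-4*, *unc-13* and *cat-2*, the last 2 of which lost their calls without 4 and 5 of the 6 libraries in turn, with 9 under the block and 1 without day 11 replicate 2, day 11 replicate 3 or day 6 replicate 1. Their sums were 397.6, 436.8 and 361.8 CPM at day 6 and 402.4, 424.4 and 388.3 CPM at day 11. Of 26 pharynx genes 5 rose, with 11 higher and 2 lower under the block and 3 higher without day 11 replicate 2 or day 11 replicate 3, and their sums were 219.8, 216 and 208.1 CPM against 218.7, 211.1 and 213.6 CPM. Sums of muscle, neuron and pharynx genes overlapped between the days.

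Genes of protein synthesis and stress defence were mostly not called, and neither were most genes tested, of which 16.4% were called. Of 83 cytosolic ribosomal protein genes none was called by edgeR, where 1 passed unadjusted at 0.05, and the block called 3 higher and DESeq2 0 higher and 0 lower. Their median log2 difference was -0.01, and it turned positive without day 6 replicate 1, day 11 replicate 2 or day 11 replicate 3, at 0.05 to 0.17. Of 33 proteasome genes 1 fell, *rpn-9*, or 29 under the block, with a median of -0.22. The falls were 4 without day 11 replicate 1, and *rpn-9* lost its call without each of the other 5 libraries, at edgeR adjusted p of 0.0547 to 0.12. Of 24 heat shock and chaperone genes 1 rose, *hsp-12.2*, and of 24 antioxidant genes 1 rose. Among the fits that left out 1 library *hsp-12.2* kept its call only without day 6 replicate 2. Under the block 4 chaperone genes rose and 2 fell, and 3 antioxidant genes rose and 5 fell. Of 20 genes of folding and stress in the endoplasmic reticulum 2 rose and 1 fell, or 4 and 4 under the block. With 1 library left out 1 or 2 of them rose and 0 or 1 fell. *xbp-1*, the transcription factor of the unfolded protein response of the endoplasmic reticulum, had 249.5, 266 and 251 CPM at day 6 and 353, 360.3 and 358 CPM at day 11, a small rise with separate groups (log2 difference 0.48, SE 0.1, adjusted p = 0.0020).

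Some of the largest changes were in genes of no list. *chtb-1* (chromosome III, 9347768 to 9355462) had 0.951, 0.40 and 0.775 CPM at day 6 and 11.5, 20.7 and 16.6 CPM at day 11, a 23-fold rise (log2 difference 4.53, SE 0.5, adjusted p = 1.5e-06). *hil-7*, a linker histone gene that the histone list did not hold, had 2.88, 1.82 and 1.73 CPM at day 6 and 25.3, 19.8 and 21.7 CPM at day 11 (log2 difference 3.38, SE 0.25, adjusted p = 5.6e-09), and the aquaporin gene *aqp-2* had 17.8, 18.8 and 17.5 CPM at day 6 and 189, 146 and 178 CPM at day 11 (log2 difference 3.24, SE 0.27, adjusted p = 4.0e-08). Among genes without a given name K09F6.13 (chromosome II, 2289114 to 2290301) had 1.9, 1.03 and 1.13 CPM at day 6 and 24, 25.5 and 25.5 CPM at day 11 (log2 difference 4.21, SE 0.27, adjusted p = 9.5e-10), and ZC21.10 (chromosome III, 8530072 to 8531350) had 0.445, 0.316 and 0.36 CPM at day 6 and 7.29, 9.3 and 7.86 CPM at day 11 (log2 difference 4.45, SE 0.23, adjusted p = 3.0e-11). F20E11.17 (chromosome V, 17468613 to 17469280) had 0.462, 0.169 and 0.173 CPM at day 6 and 11.9, 3.43 and 2.33 CPM at day 11, with 1 day 11 library well above the others (log2 difference 4.47, SE 0.84, adjusted p = 0.00082).

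Falls of the same kind were seen in transporters and enzymes. *hmit-1.1*, a proton-coupled myo-inositol transporter gene, had 10.7, 9.13 and 7.15 CPM at day 6 and 1.04, 1.01 and 0.669 CPM at day 11 (log2 difference -3.31, SE 0.48, adjusted p = 3.4e-05). The saposin-like gene *spp-17* had 40.2, 41.1 and 49.1 CPM at day 6 and 3.69, 4.48 and 5.3 CPM at day 11 (log2 difference -3.27, SE 0.47, adjusted p = 3.1e-05), and the catechol-O-methyltransferase family gene *comt-4* had 23.5, 22.3 and 12.9 CPM at day 6 and 4.43, 2.76 and 1.43 CPM at day 11 (log2 difference -2.77, SE 0.66, adjusted p = 0.0053). No day 11 value of these genes reached a day 6 value. C17H12.6 (chromosome IV, 6821065 to 6822506) had 4.79, 4.76 and 6.54 CPM at day 6 and 0.31, 0.352 and 0.649 CPM at day 11 (log2 difference -3.61, SE 0.62, adjusted p = 0.00030).

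By position, the X chromosome had the highest shares of genes that moved, 17.0% higher and 5.66% lower of 2776 tested, and chromosomes I and III had 10.1% and 10.5% higher. By class, 55 of 359 tested non-coding RNA genes (15.3%) and 152 of 1051 pseudogenes (14.5%) rose, against 2188 of 17659 protein-coding genes (12.4%).

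**Figure D4:**
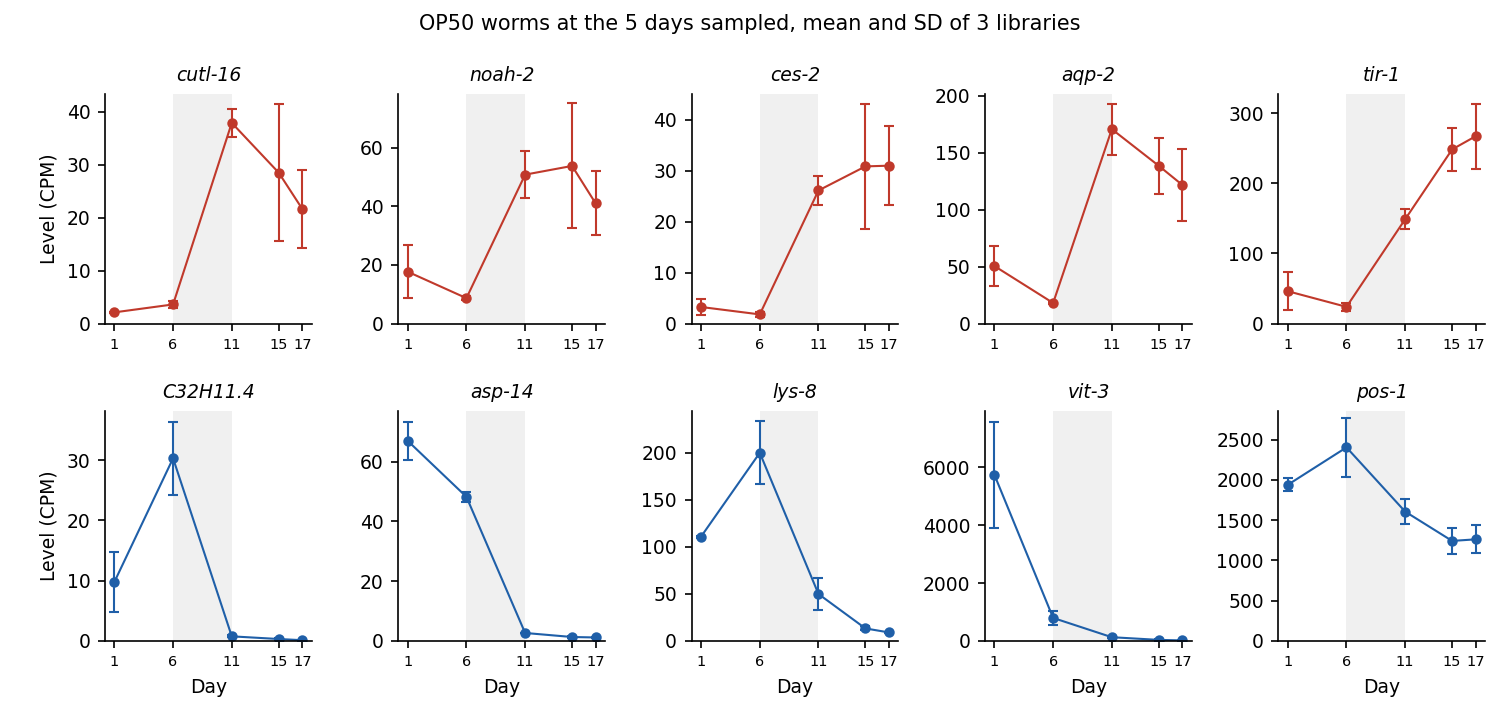
Mean level in CPM (vertical axes from 0) of 10 named genes in OP50-fed worms at days 1, 6, 11, 15 and 17, with bars of 1 SD over 3 libraries. The shaded span runs from day 6 to day 11, where the genes in red rose and those in blue fell.

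The levels at the other ages of OP50-fed worms place the step, as means ± SD of 3 libraries and with no test. *cutl-16* was at 2.11 ± 0.15 CPM at day 1, 28.5 ± 13 at day 15 and 21.7 ± 7.4 at day 17. *noah-2* was at 17.7 ± 9.1 CPM at day 1, 53.8 ± 21.3 at day 15 and 41 ± 10.9 at day 17, and *ces-2* was at 3.25 ± 1.52 CPM at day 1, 30.9 ± 12.2 at day 15 and 31 ± 7.77 at day 17. All of these were lower at day 1 than at day 15 or 17. *tir-1* was at 46.1 ± 27.1 CPM at day 1, 248 ± 30.5 at day 15 and 267 ± 46.1 at day 17, with the same order. From day 6 to day 11 their means had gone from 3.6 to 37.9 CPM for *cutl-16*, 8.65 to 50.8 CPM for *noah-2*, 1.79 to 26.1 CPM for *ces-2* and 23.8 to 149 CPM for *tir-1*. For the genes that fell, *sysm-1* was at 9.53 ± 6.42 CPM at day 1, 0.274 ± 0.202 at day 15 and 0.619 ± 0.688 at day 17, so its mean was highest at day 6. *asp-14* was at 67 ± 6.43 CPM at day 1, 1.27 ± 0.249 at day 15 and 1.12 ± 0.224 at day 17, *fat-7* at 76.4 ± 20.7 CPM at day 1, 1.58 ± 0.883 at day 15 and 1.09 ± 0.245 at day 17, and *vit-3* at 5740.2 ± 1837 CPM at day 1, 31.5 ± 23.1 at day 15 and 13.5 ± 6.02 at day 17. The means of *fat-7* and *vit-3* were lower at each later age.

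The same step in extract-fed worms, which shared no library with the control comparison, changed 2875 genes (14.9%), of which 2444 rose (12.7%) and 431 fell (2.23%). Of the 3173 genes called in control worms 3125 (98.5%) had the same sign in extract-fed worms, against 78.1% of all genes tested. The genes called in both with the same sign numbered 1870, which is 58.9% of the control calls and 65.0% of the extract-fed calls, and none was called in opposite directions. Across the 19290 genes, which are not independent replicates, the log2 differences of the steps had a Pearson r of 0.705. Extract-fed differences were smaller at the median for genes called in control worms, 1.45 against 1.85 for those that rose and -0.41 against -0.66 for those that fell. The genes were chosen by their control values, which favours larger control differences.

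**Figure D5:**
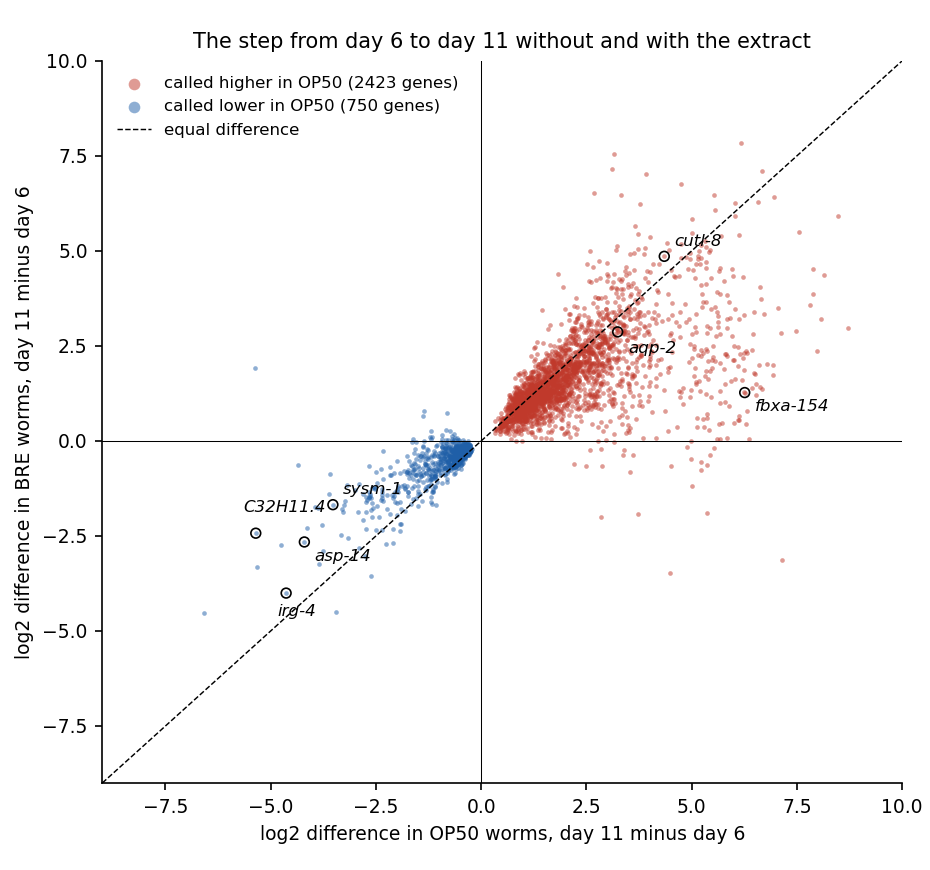
Log2 difference between day 11 and day 6 in extract-fed worms (vertical axis) against the same in OP50-fed worms (horizontal axis), with 1 point for each of the 3173 genes called in OP50-fed worms. Of these 98.5% lie on the same side of 0 in both.

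By gene, *cutl-16* rose by 2.81 on the log2 scale in extract-fed worms and *noah-2* by 2.43. The log2 differences were 3.32 for *ces-2*, 2.31 for *tir-1*, -1.68 for *sysm-1*, -2.43 for C32H11.4 and -2.66 for *asp-14*. A test of the difference between the steps in the 2 sets of worms called none of the 19290 genes in edgeR, where 613 (3.18%) had an unadjusted p under 0.05, and 5 in DESeq2. The gene nearest to the threshold was the F-box gene *fbxa-154*, with 0, 0.0154 and 0 CPM at day 6 and 0.465, 0.458 and 0.469 CPM at day 11, and an edgeR adjusted p of 0.05 for the difference between the steps.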

How the data were processed

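RNA-seq was made from whole worms, and the deposited file is a table of counts per gene and library, per the file headers. Per the submitters' processing notes, the authors used FastQC, Trimmomatic, HISAT2 2.0.5, SAMtools 1.7 and featureCounts. No label or header gives the genome build, the strand setting or the counting parameters, so genes that share exons or near-identical copies may share counts. Between 60.4 and 66.8% of the counts from 1 to 20 were even in the 6 libraries compared, so a count may stand for 1 mate of a pair and not for 1 fragment. Coordinates come from the Ensembl annotation of WBcel235, matched by WormBase gene ID. No sequences were used here.

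Genes were kept by edgeR's filterByExpr with a minimum count of 10 and scaled by TMM. The quasi-likelihood test of edgeR 4.0.16 (R 4.3.3) was fitted to all 27 libraries with 9 group means, and the contrast of day 11 against day 6 was tested with Benjamini-Hochberg adjustment over 19290 genes and a threshold of 0.05. Sharing 1 estimate of spread over all groups assumes that these 6 libraries vary like the rest. The SE of a log2 difference is its size divided by the square root of the F statistic. Levels are CPM of the scaled library and are not corrected for gene length. Samples of control worms with the same replicate number deviated from their group means together, with r of 0.302, 0.154 and 0.232 for equal numbers and 0.048 at most for others, so the fit with the number as a block is given where it moves a count of calls by more than 1.5 times. Alternatives were DESeq2 1.42.0, its size factors in edgeR, upper-quartile scaling, no filter, fits on fewer libraries, the block, and leaving out each replicate. The test was checked on simulated counts. Genes named were, by rule, the 12 largest changes in each direction with a given name and the 3 without, drawn from called genes that moved by 1 or more on the log2 scale, had a mean of 5 CPM or more on either day and had groups that did not overlap. Up to 4 called members of each list with the lowest adjusted p were added, which made 163 genes. The members and lists were chosen with earlier results of these data known, and 8 of the 62 lists were added after the results of the comparison had been seen. Genes outside the rule, *tir-1*, *noah-1*, *lpr-3*, *fbn-1*, *plx-2*, *dlg-1*, *vhp-1* and *zag-1* among them, were chosen after their values were seen.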

Additional observations from a re-analysis of the deposited data

How the results depend on the processing

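The 2423 genes that rose stayed within 1.5 times that number under every alternative run. The total of 3173 moved to 6171 with the replicate block, and the 750 genes that fell to 3097 with the block, 1137 in DESeq2 and 455 under upper-quartile scaling. Leaving out 1 replicate gave 430 to 658 genes that fell, 2175 to 2786 in all and 1739 to 2128 that rose. For extract-fed worms the 2875 calls were 1299 when only the 6 libraries compared were fitted, 1502 with the block and 1663 to 2955 without 1 replicate. The difference between the steps, 0 genes, was 5 in DESeq2 and 1 with no filter, and 0 to 1 without 1 replicate. Counts of calls have no direction of their own, but the balance of rises and falls in control worms moved. Rises were 76.4% of the calls in the main fit and 49.8% with the block over the 6 libraries. They were 86.5% under upper-quartile scaling and 72.2% in DESeq2. Of 2277 values of the 163 named genes under the alternatives 2057 kept their side of the threshold and 220 lost it, none of them with the block over the 6 libraries, which gave a value for 161. The median log2 difference of the sperm list went from 5.70 to 0.67 without day 11 replicate 1, and to 4.14 with genes at 0 counts set to their bound. Genes under 1 CPM at day 6 were 43.9% of those tested. Depth limits mainly the lowest of these, as 3 counts over the day 6 group are 0.00771 CPM.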

Other observations

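The linker histone genes *hil-3* and *hil-2*, both members of the histone list, which did not hold *hil-7*, were also among the rises. *hil-3* had 16.9, 12.4 and 11.8 CPM at day 6 and 79, 56 and 53.4 CPM at day 11 (log2 difference 2.19, SE 0.37, adjusted p = 0.00022), and *hil-2* had 36.3, 27.5 and 23.2 CPM at day 6 and 66.3, 58.8 and 53.3 CPM at day 11 (log2 difference 1.04, SE 0.24, adjusted p = 0.0049). Day 6 and day 11 did not overlap in either gene. Of 66 histone genes 8 rose (12.1%) and 2 fell (3.03%), near the 12.6% and 3.89% of all genes tested. Under the block 11 rose and 5 fell. The rises were 3 without day 11 replicate 3 or day 6 replicate 3. They were 4 without day 11 replicate 1 or day 6 replicate 2, and 5 without day 11 replicate 2.

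A ferritin gene and a trehalose synthesis gene were among the falls. Of 15 metal handling genes 2 fell and 1 rose, or 7 and 2 under the block. Of 12 trehalose and glycogen genes 1 fell and 1 rose, or 8 and 2 under the block. Over all genes tested 3.89% fell and 12.6% rose. *ftn-1*, also a ferritin gene, had a log2 difference of -1.29 and was not called. *ftn-2*, a ferritin gene, had 207, 163 and 167 CPM at day 6 and 137, 89.1 and 101 CPM at day 11 (log2 difference -0.72, SE 0.16, adjusted p = 0.0029). *tps-2*, a trehalose phosphate synthase gene whose exons overlap *arl-3*, had 68.9, 85.8 and 63.1 CPM at day 6 and 33.7, 35.5 and 32.4 CPM at day 11 (log2 difference -1.1, SE 0.22, adjusted p = 0.0014). No day 11 value reached a day 6 value in either. The saposin-like gene *spp-9* had 44.4, 6.16 and 14.6 CPM at day 6 and 226, 80.8 and 257 CPM at day 11, with a wide spread within each day and an edgeR adjusted p of 0.046 that passed no longer without day 11 replicate 1, day 11 replicate 3, day 6 replicate 2 or day 6 replicate 3.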
